A study of Mus musculus with 16 samples.

Results

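The genes described here are the axon guidance ligands and receptors: 68 genes of the semaphorin, plexin, neuropilin, ephrin, Eph, Slit, Robo, netrin and Unc5 families, of 21854 genes with a count in any of 16 mouse rhabdoid tumors. They were taken by symbol alone (Sema, Plxn, Nrp, Efn, Eph, Slit, Robo, Ntn and Unc5 followed by a member's number or letter) with a count above 0 in any tumor, and all 68 symbols of that form in the count table qualified. There were 35 ligands and 33 receptors, and 67 of the 68 had a mean of 50 counts or more per tumor, the exception being Ntn5 with 18.6. Each tumor came from a different mouse that carried floxed Smarcb1 alleles and the R26-CreERT2 transgene, in which tamoxifen given to the embryo activates a Cre recombinase expressed from the ubiquitous Rosa26 locus, so that any cell type can lose Smarcb1, a core subunit of the SWI/SNF chromatin remodeling complex.

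The 5 Shh tumors lay within the central nervous system (intra-CNS), had all received tamoxifen at E6 and were taken at 30 to 180 days of age. The 11 Myc tumors comprised 6 in the cranium outside the CNS, with tamoxifen at E6 (1 tumor), E7 (1) or E8 (4) and taken at 52 to 170 days, and 5 extracranial ones, with tamoxifen at E6 (1) or E8 (4) and taken at 80 to 210 days. Sites came from the sample labels and subgroups from the study's list of mice, in which mouse 38594A appears without its final letter and 43990A, labelled as a nose tumor, is given as intracranial; it was kept as extracranial. Because every Shh tumor was intra-CNS and induced at E6, subgroup, brain site and day of induction cannot be told apart, apart from the 2 Myc tumors also induced at E6. Polyadenylated RNA was sequenced, with total counts of 17889968 to 110177889 per tumor, and no label names a batch.

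Growing axons are steered by cues that attract or repel their growth cones. Slits are secreted and repel axons through Robo receptors, netrins act through Dcc and Unc5 receptors, ephrins on one cell signal to Eph receptor kinases on its neighbor and can themselves signal backward, and semaphorins act on plexins, with neuropilins as co-receptors for the secreted class. In the developing forebrain the same molecules also guide migrating neurons, and outside the nervous system they pattern blood vessels, epithelia, bone and immune cells. In bulk tissue a lower level may come from fewer cells that express a gene or from less RNA per cell, and these cannot be told apart.

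Smarcb1, the targeted gene, was read in every tumor. In the Shh tumors of mice 29048, 38594A, 29050A, R26P98 and R26P87 (the order kept throughout) it stood at 58.1, 3.99, 9.91, 4.48 and 7.08 TPM (the deposited level, scaled for gene length and to the same total in every tumor). The intracranial Myc tumors ranged from 6.48 to 43.7 TPM with a median of 11.2 and R26P115 highest, and the extracranial ones held 26.1, 12.2, 8.63, 22.1 and 18.5 TPM for 43825B, 43987A, 43990A, 43998A and R26P123. The log2 fold change of Smarcb1, Shh over Myc, was -0.59 ± 0.63 (SE, adjusted p = 0.480 in edgeR) and, without 29048, -1.97 with an adjusted p of 0.0147. The tumor of 29048 was the highest of all 16, and it also held 7202 TPM summed over 8 oligodendrocyte markers, where the other Shh tumors held at most 187 and the Myc tumors 43.1 to 148. The count over all members is therefore also given without it. R26P115 was the second highest in Smarcb1, and of the Myc tumors it had the lowest sums of immune (551 TPM) and fibroblast markers (545 TPM); Slit2, Plxnb1 and Sema3b are given with and without it.

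Most guidance genes that differed between the subgroups were higher in Shh tumors. Of the 68 members, 35 (51.5%) passed the threshold (adjusted p below 0.05 with a log2 fold change beyond 1 in either direction) in edgeR's quasi-likelihood test over all genes, against 26% of the 21854 genes tested. Among them 29 were higher in Shh tumors, where 12.9% of all genes were, and 6 were lower, where 13.1% were. The median log2 fold change was 1.34 over the 68 members and -0.15 over all genes. The levels of 20 members in the 5 Shh tumors all lay above those in the 11 Myc tumors (12.9% of all genes) and those of 1, Epha2, all lay below (2.44%). Among genes kept by edgeR's filter on low counts, 36 of 67 members passed, against 31.2% of 16160 genes. On log2(TPM + 1) in limma the median of all genes moved from -0.15 to 0.20 and calls tilted upward. There 36 members were higher and 2 lower in Shh tumors, against 18.7% and 6.06% of the 21841 genes. Some members moved further than the median. Epha1 (-2.58 in edgeR), Sema3c (-2.80), Sema3f and Nrp1 lost their calls, and 14 members, none called in edgeR, turned sign. Calls thus depended on the scaling, also for some larger fold changes. Without 29048, 34 members passed (29 higher and 5 lower), of which 33 had also passed with it, against 22.8% of all genes (2406 higher and 2554 lower of 21777). Among tumors induced at E6 alone, 5 Shh and 2 Myc, 23 members passed, 17 higher and 6 lower, against 16.9% of all genes. Of the 20904 genes tested there, 1315 were higher and 2218 lower in Shh tumors. The 15 members that passed over all tumors but not there were Efnb1, Efnb2, Epha1, Epha3, Epha5, Epha8, Epha10, Ephb4, Plxna1, Plxna3, Sema3f, Sema4f, Sema4g, Sema5a and Sema6c, each with the same sign in both fits.

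**Figure D1:**
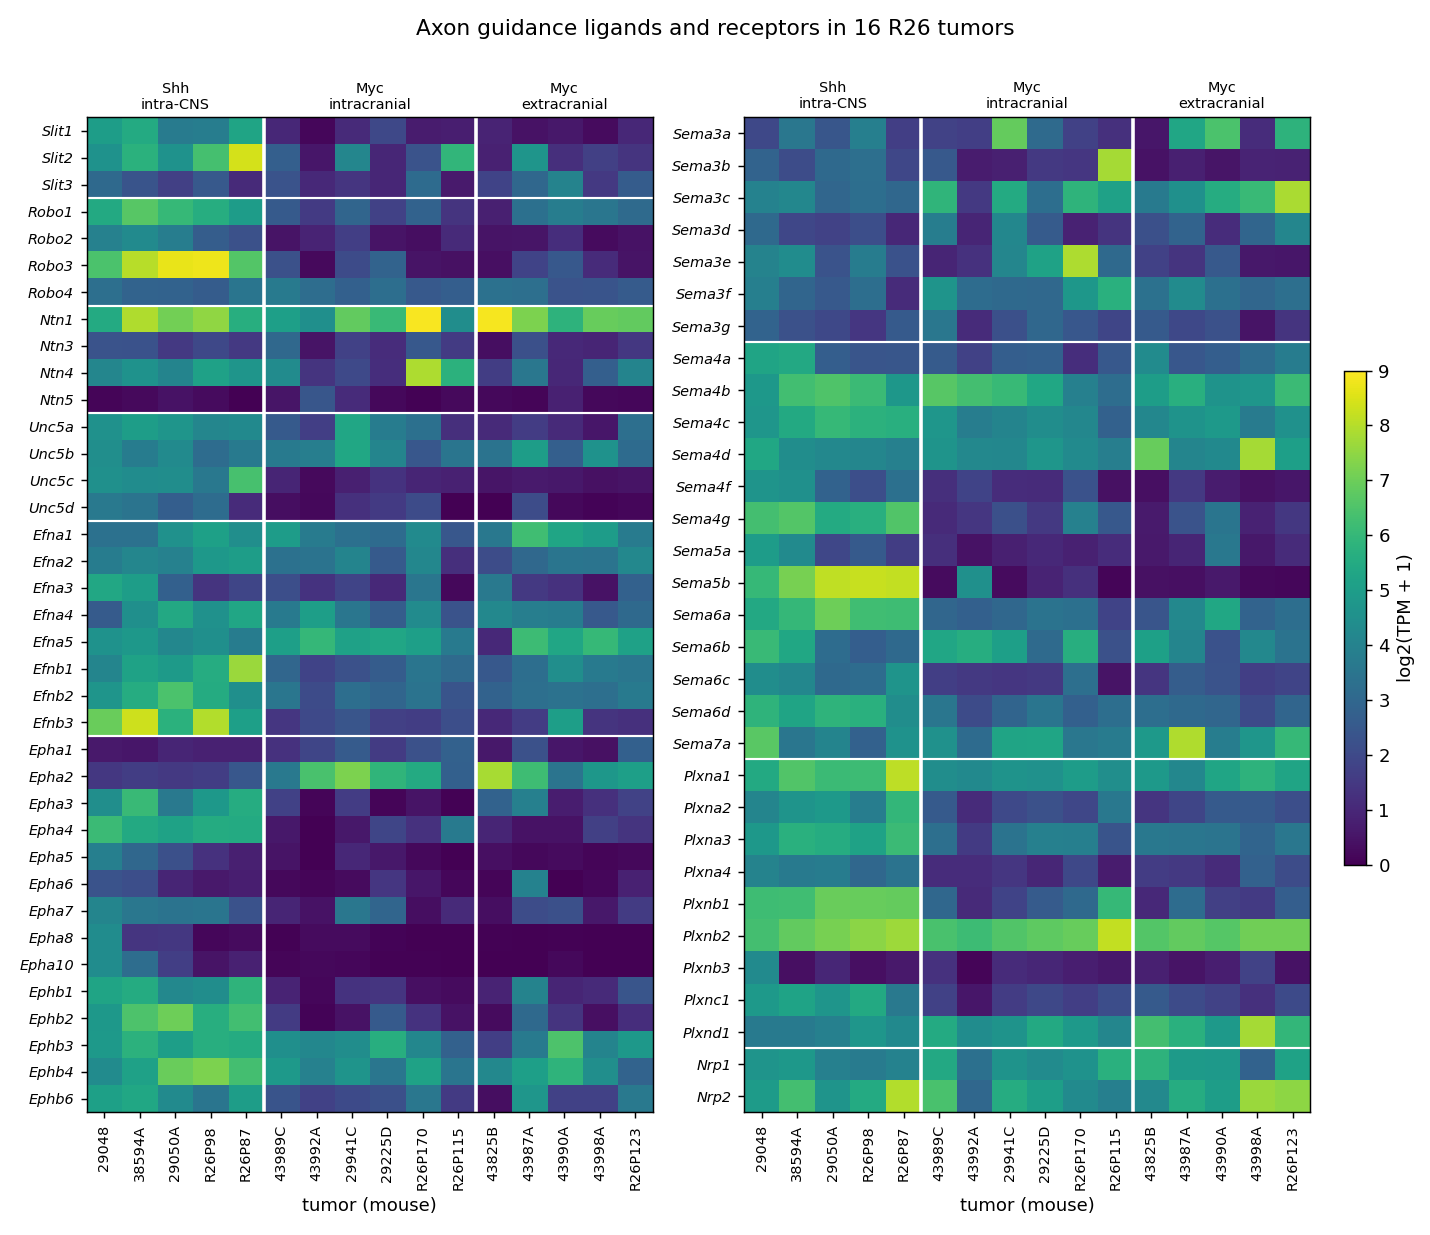
Level of each of the 68 members (rows, grouped by family, italic symbols) in each of the 16 tumors (columns, named by mouse), as log2(TPM + 1) on a color scale from 0 to 9; white lines part the 5 Shh, 6 intracranial Myc and 5 extracranial Myc tumors and the families. Robo3, Sema5b, Plxnb1 and Efnb3 are bright in the Shh columns and dark in most Myc columns, while Epha2 shows the opposite.

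**Figure D2:**
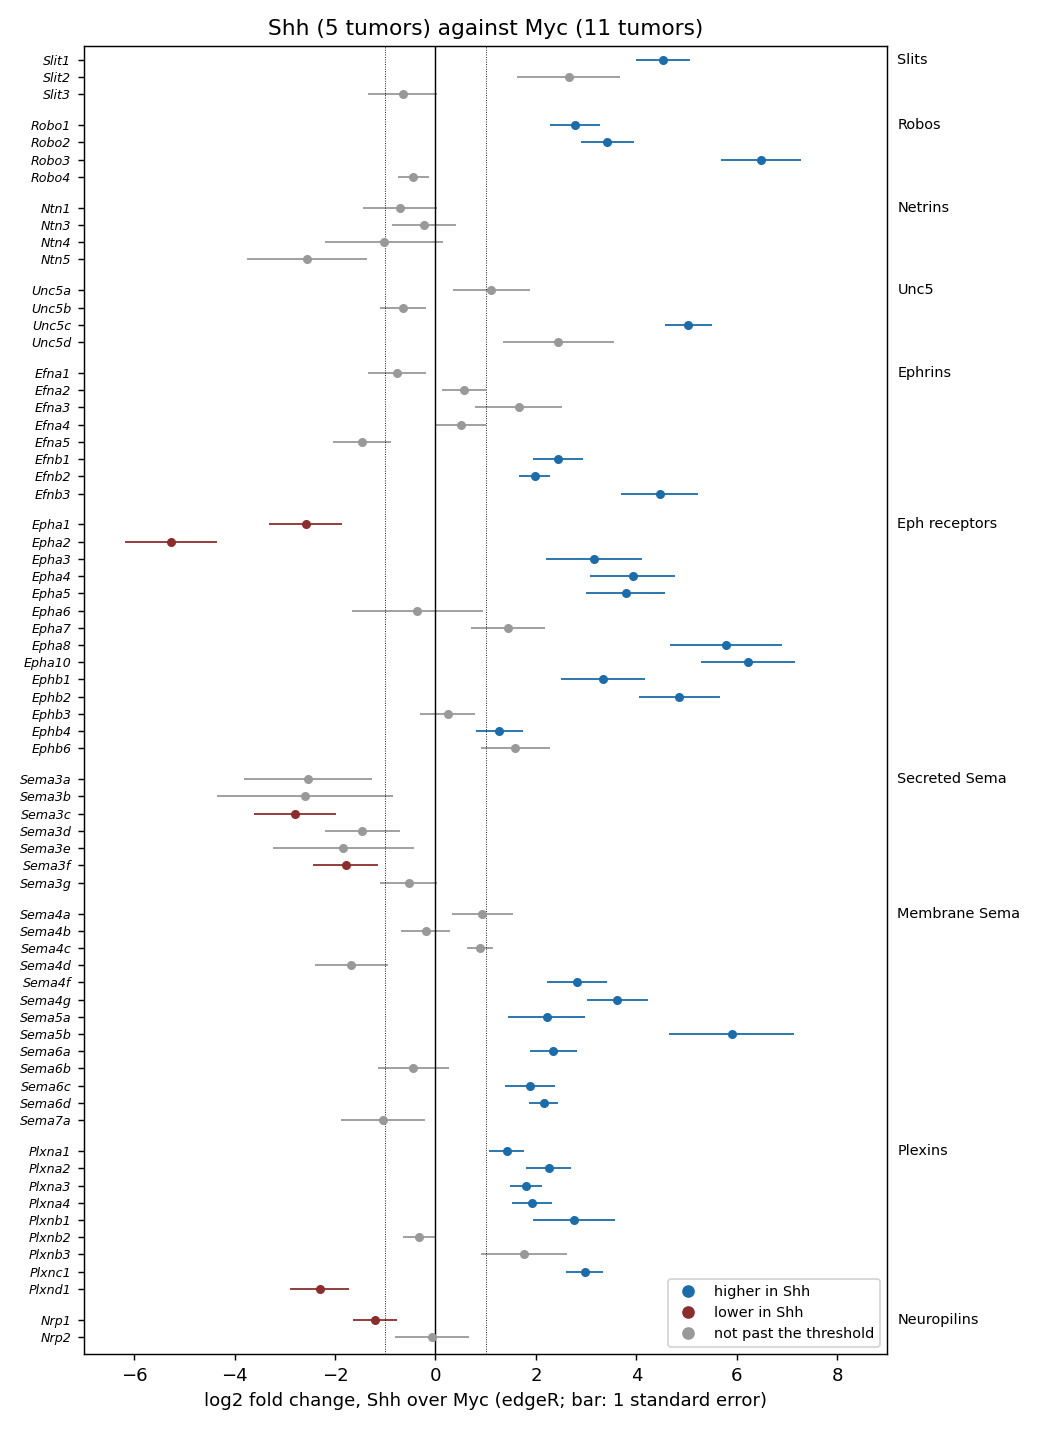
Log2 fold change of each member, Shh over Myc, from edgeR (points) with 1 standard error (bars), grouped by family; blue points passed the threshold as higher in Shh (29), red ones as lower (6) and grey ones did not (33), and dotted lines mark a log2 fold change of 1 in either direction. All 3 B-class ephrins and 3 of 4 Robos are blue, and no secreted semaphorin is.

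Robo3 had the highest log2 fold change of the 68 members. Of the 3 Slit ligands 1 passed, and of the 4 Robo receptors 3 passed, all higher in Shh tumors. Summed over the 4 Robos, Shh tumors held 139.6 to 503 TPM and Myc tumors 8.36 to 22.8 TPM. The class was dominated in Shh tumors by Robo3, a divergent family member that commissural axons of the hindbrain and spinal cord need to cross the midline. Robo3 stood at 87.0, 264, 419.6, 441 and 95.3 TPM in the Shh tumors, against a lowest value of 0.169, a median of 1.16 and a highest of 6.29 TPM in the Myc tumors. Every Shh tumor lay far above every Myc tumor, and the log2 fold change was 6.49 ± 0.79 (SE; adjusted p = 3.03e-05).

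Robo3 (Ensembl gene ENSMUSG00000032128, chromosome 9, 37415669 to 37433246, minus strand, GRCm38) is shown with the bases just before its first annotated exon, since it carried the largest fold change of the members. The 179 bases at chr9:37433247-37433425 (minus strand, 5′ to 3′, RefSeq, GRCm38.p6) are 58.1% G or C and hold no match to the 4 motifs searched on both strands (capitals would mark one): the E-box CACGTG, the Gli core GACCACCCA, and the left and right parts of the REST site, TTCAGCACC and GACAGCGCC.
Robo3: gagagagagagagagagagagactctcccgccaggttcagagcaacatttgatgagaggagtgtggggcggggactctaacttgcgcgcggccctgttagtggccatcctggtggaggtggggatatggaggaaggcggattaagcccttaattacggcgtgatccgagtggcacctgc
These bases lie upstream of the outermost start in either annotation. A window without a match says only that these letters are not in it.

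Robo1 and Robo2, the classical Slit receptors, followed the same order at lower levels. Robo1 was measured at 43.3, 100.0, 63.8, 47.6 and 30.2 TPM in Shh tumors, and at 0.720 to 13.1 TPM (median 6.17) in Myc tumors, with no overlap and a log2 fold change of 2.77 ± 0.50 (adjusted p = 0.000558). Robo2 was measured at 14.5, 18.7, 13.1, 5.33 and 3.71 TPM in Shh tumors, and at 0.188 to 2.21 TPM (median 0.401) in Myc tumors, again with no overlap (3.42 ± 0.53, adjusted p = 0.000183). The 2 genes are neighbors on chromosome 16, 846 kb apart, and both rose. Robo4, the endothelial member, lies 553 bases from Robo3 on chromosome 9 and did not pass: Shh tumors held 5.17 to 10.3 TPM and Myc tumors 3.93 to 11.7 TPM (log2 fold change -0.44 ± 0.31, adjusted p = 0.270).

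Among the ligands, Slit1, the Slit most restricted to the nervous system, separated the groups cleanly. Its Shh levels were 31.4, 44.8, 12.5, 12.9 and 37.3 TPM, and its Myc levels ran from 0.109 to 2.88 TPM with a median of 0.695 (4.53 ± 0.54, adjusted p = 2.37e-05). Slit2, the most abundant Slit in Shh tumors, stood at 22.9, 52.5, 23.3, 80.6 and 342 TPM there and at 0.445 to 59.1 TPM (median 2.30) in Myc tumors. Among Myc tumors 43987A (25.2 TPM) and R26P115 (59.1 TPM) reached into the Shh range, and the gene did not pass (2.65 ± 1.03, adjusted p = 0.0579). Without R26P115 it passed, with a log2 fold change of 3.64 ± 0.92 and an adjusted p of 0.00559. With all tumors it also passed in DESeq2 (adjusted p = 0.0203), in limma on log2(TPM + 1) (0.00463) and with the low-count filter (0.0474), and it did not with DESeq2 size factors (0.0566) or the covariate for mouse names (0.103). Slit3, the Slit of highest median in Myc tumors, did not pass (Shh and Myc ranges 1.11 to 7.40 and 0.565 to 15.3 TPM, adjusted p = 0.479).

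None of the 4 netrin genes passed in edgeR, while DESeq2 called Ntn5 and the tumors induced at E6 alone gave Ntn1 as lower in Shh tumors (-2.44, adjusted p = 0.0383). All 4 log2 fold changes were below 0 in edgeR (-2.56 to -0.23), but on log2(TPM + 1) the differences of Ntn1 (0.23), Ntn3 (0.41) and Ntn4 (1.30) were above 0, so no common direction held on both scales. Ntn1, the founding attractant of commissural axons, was the highest netrin in both subgroups, at 43.8, 244, 134, 183 and 48.6 TPM in Shh tumors and 20.1 to 482 TPM (median 113) in Myc tumors (-0.71 ± 0.74, adjusted p = 0.471). The spread among Myc tumors was wide, with R26P170 at 482 and 43825B at 474 TPM and the 9 others at or below 148 TPM. Ntn4, a netrin of basement membranes, reached 237 TPM in R26P170 and stayed between 0.999 and 53.7 TPM in the other Myc tumors, around the 15.8 to 34.9 TPM of Shh tumors.

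The Unc5 receptors, which mediate repulsion from netrins, passed for 1 of 4 genes in edgeR, and for 3 in limma on log2(TPM + 1), where Unc5a (2.22, adjusted p = 0.0126) and Unc5d, named after its values were seen, were also called. Unc5c had the lowest adjusted p of all members: Shh tumors held 22.1, 19.6, 20.5, 11.2 and 81.5 TPM and Myc tumors 0.159 to 1.52 TPM (median 0.560), so that the lowest Shh tumor stood above every Myc tumor (5.04 ± 0.47, adjusted p = 3.11e-06). Unc5a, the Unc5 gene of highest median in Shh tumors, was at 22.4, 31.1, 24.8, 16.6 and 18.5 TPM there and at 0.463 to 39.0 TPM in Myc tumors, where 29941C alone exceeded the Shh range. It did not pass (1.12 ± 0.77, adjusted p = 0.272), and without 29941C it did, at 1.89 and an adjusted p of 0.0280, as it did against the extracranial Myc tumors alone (2.61, adjusted p = 0.0187). Unc5b, an endothelial guidance receptor, did not pass, at 8.16 to 20.9 TPM in Shh and 4.43 to 40.0 TPM in Myc tumors (-0.65 ± 0.46, adjusted p = 0.285).

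**Figure D3:**
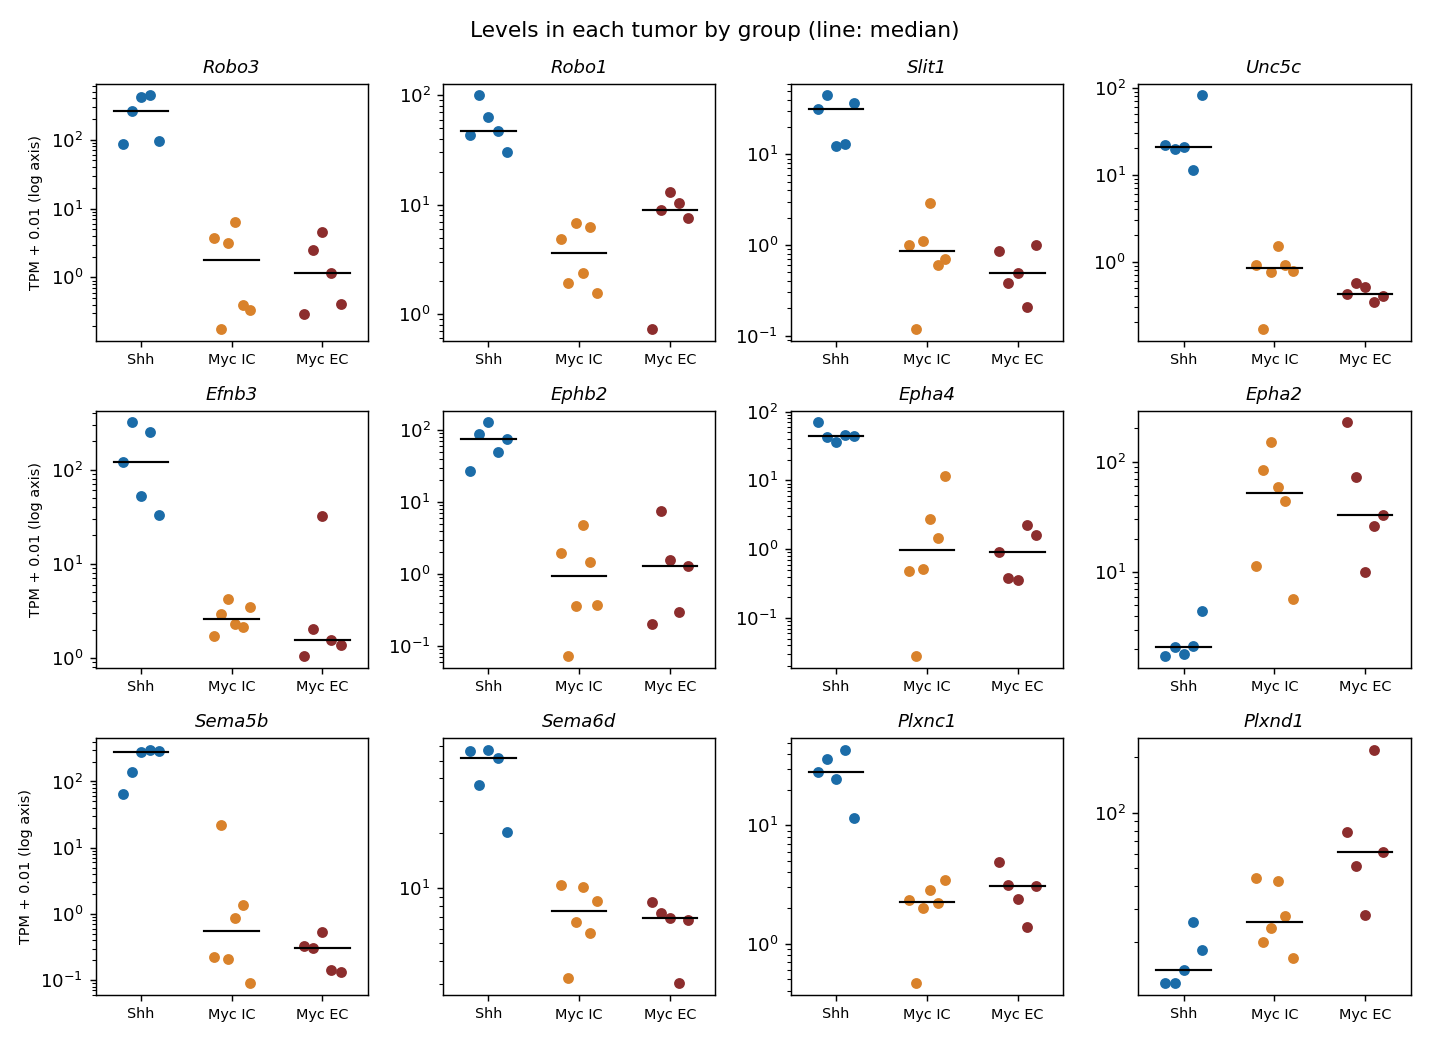
TPM in each tumor (points; log axis, 0.01 added) of 12 members by group, with the median as a line: 5 Shh tumors, 6 intracranial Myc tumors (Myc IC) and 5 extracranial Myc tumors (Myc EC). For Robo3 the Shh tumors span 87.0 to 441 TPM and no Myc tumor exceeds 6.29 TPM, while for Epha2 the Shh tumors lie at or below 4.47 TPM and the Myc tumors at or above 5.72 TPM.

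All 3 B-class ephrins, which span the membrane, were higher in Shh tumors, while none of the 5 A-class ephrins, which are held by a lipid anchor, passed. Among tumors induced at E6 alone Efnb1 (2.58, adjusted p = 0.150) and Efnb2 (1.92, adjusted p = 0.0680) did not pass. Efnb3, an ephrin of the midline and of the corticospinal tract, was the highest ephrin in Shh tumors at 121, 316, 52.6, 251 and 33.1 TPM. In Myc tumors it lay between 1.04 and 4.20 TPM in 10 of the 11 and at 32.0 TPM in 43990A, so that the groups did not overlap by a narrow margin (4.46 ± 0.77, adjusted p = 0.000394). Efnb2, an artery and neural progenitor ephrin, was at 24.7, 46.5, 85.5, 45.9 and 21.3 TPM against 3.18 to 11.9 TPM (median 8.68), with no overlap (1.98 ± 0.31, adjusted p = 0.000185). Efnb1 was at 16.1, 35.0, 29.1, 46.8 and 202 TPM against 2.52 to 20.6 TPM (2.44 ± 0.51, adjusted p = 0.00160), and only 43990A reached into the Shh range. Of the A class, Efna4 had the highest median in Shh tumors (22.3 TPM, range 4.95 to 42.6; Myc 3.99 to 31.7 TPM; adjusted p = 0.451) and Efna5 in Myc tumors (34.9 TPM, range 1.08 to 71.4; Shh 12.6 to 26.8 TPM; adjusted p = 0.0617). Without 43825B, the Myc tumor at 1.08 TPM, Efna5 passed as lower in Shh tumors (-1.60, adjusted p = 0.00278), as it did without R26P115, with DESeq2 and against the intracranial Myc tumors alone. Efna2, named after its values were seen, passed on log2(TPM + 1). The difference between the ephrin classes was not tested.

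Among 14 Eph receptors 8 were higher and 2 lower in Shh tumors, both of the latter in the A class. Epha2, an Eph receptor of epithelia and of many carcinomas, was the A-class receptor of highest median in Myc tumors, with levels of 5.72 to 226 TPM (median 44.4). In Shh tumors it stood at 1.73, 2.09, 1.82, 2.11 and 4.47 TPM, below every Myc tumor (-5.27 ± 0.91, adjusted p = 0.000417). Epha4, a receptor of motor and corticospinal axons that binds both ephrin classes, had the highest median of the class in Shh tumors, with 69.4, 42.9, 35.8, 45.5 and 44.2 TPM against 0.0181 to 11.8 TPM (median 0.911) and no overlap (3.92 ± 0.86, adjusted p = 0.00231). The highest Myc value of Epha4 was in R26P115, without which the log2 fold change was 4.99 ± 0.64 (adjusted p = 3.80e-05). Epha1, the other member lower in Shh tumors, was low throughout, at 0.468 to 0.894 TPM in Shh and 0.339 to 5.95 TPM in Myc tumors (-2.58 ± 0.73, adjusted p = 0.0125), overlapped in range, and did not pass on log2(TPM + 1) (adjusted p = 0.0726).

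Epha2 (ENSMUSG00000006445, chromosome 4, 141301240 to 141329384, plus strand, GRCm38) is shown because it was the only member whose Shh tumors all lay below the Myc tumors. The 250 bases before its RefSeq start, at chr4:141300971-141301220 (plus strand, RefSeq, GRCm38.p6), are 55.6% G or C and hold none of the 4 motifs.
Epha2: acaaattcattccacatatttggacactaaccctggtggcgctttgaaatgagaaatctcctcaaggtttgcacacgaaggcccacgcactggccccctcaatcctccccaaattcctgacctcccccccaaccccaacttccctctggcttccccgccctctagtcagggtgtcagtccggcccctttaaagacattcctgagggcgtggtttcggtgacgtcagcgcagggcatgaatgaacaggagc
On the same chromosome lie Epha8 and Ephb2, 93.4 kb apart and both higher in Shh tumors. The 250 bases before Epha8 (ENSMUSG00000028661; window chr4:136956817-136957066, minus strand) are 84.0% G or C and hold an E-box, in capitals.
Epha8: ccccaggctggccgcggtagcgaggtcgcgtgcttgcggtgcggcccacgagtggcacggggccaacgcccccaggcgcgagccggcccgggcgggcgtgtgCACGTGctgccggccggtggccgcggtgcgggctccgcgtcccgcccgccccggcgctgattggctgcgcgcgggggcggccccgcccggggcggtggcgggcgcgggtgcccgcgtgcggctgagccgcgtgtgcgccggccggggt
E-boxes occurred in the 250 bases before the start of Epha8, Robo2 and Sema6d among the members higher in Shh tumors and of Sema4b among the others, 4 of 75 windows (5.33%) from 59 members with an entry, against 6.02% of 32841 windows of all genes. No member window held the Gli core or the left part of the REST site, which were in 0.225% and 0.301% of all windows, and the right part was in 1 member window, of Sema7a (1.33%, against 0.238% of all windows).

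The other A-class receptors that rose had uneven levels among Shh tumors. Epha3 stood at 20.8, 67.1, 11.5, 27.0 and 46.9 TPM against 0.0320 to 14.0 TPM (3.16 ± 0.95, adjusted p = 0.0179), and without 38594A it missed the threshold at an adjusted p of 0.0539. Epha5 stood at 13.8, 6.94, 3.56, 1.44 and 0.739 TPM, against 0.0117 to 0.993 TPM (3.79 ± 0.78, adjusted p = 0.00157). Epha8 and Epha10 were near 0 in Myc tumors, at most 0.203 and 0.155 TPM. Epha10, which lacks kinase activity, was at 19.8, 8.25, 2.16, 0.394 and 0.768 TPM in Shh tumors (6.23 ± 0.94, adjusted p = 0.000142), and Epha8 at 19.9, 1.64, 1.77, 0.118 and 0.188 TPM (5.78 ± 1.12, adjusted p = 0.000987). For both, 29048 was the highest tumor. Without 29048 the log2 fold changes were 5.11 ± 0.90 for Epha10 and 3.45 ± 0.97 for Epha8, both still past the threshold. In R26P98 and R26P87 Epha8 lay within the Myc range.

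Of the 5 B-class receptors 3 rose. Ephb2, which binds B-class ephrins at axon crossings and synapses, was at 26.8, 87.8, 128, 49.2 and 75.8 TPM in Shh tumors and at 0.0628 to 7.43 TPM (median 1.29) in Myc tumors, with no overlap (4.86 ± 0.81, adjusted p = 0.000321). Ephb1, known from the uncrossed axons of the retina, was at 37.3, 44.9, 17.2, 20.3 and 56.9 TPM against 0.122 to 15.2 TPM (median 0.922), also with no overlap (3.34 ± 0.83, adjusted p = 0.00581). Ephb4, the receptor of venous endothelium for Efnb2, had the highest median of its class in both subgroups, at 19.3, 34.9, 121, 147 and 78.1 TPM in Shh tumors and 6.32 to 57.0 TPM in Myc tumors. It passed narrowly (1.27 ± 0.47, adjusted p = 0.0478), and its call was lost when any of 12 single tumors was left out, with adjusted p up to 0.173. Ephb3 did not pass (27.3 to 54.7 and 2.18 to 88.2 TPM, adjusted p = 0.744). Ephb6, which lacks kinase activity and was named after its values were seen, was at 33.3, 39.7, 18.8, 10.3 and 30.9 TPM in Shh and 0.251 to 25.6 TPM (median 3.02) in Myc tumors. It did not pass in edgeR with all tumors (1.59 ± 0.68, adjusted p = 0.0813), but was called higher by DESeq2, in limma on both scales, against the intracranial Myc tumors alone and without 43987A.

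**Figure D4:**
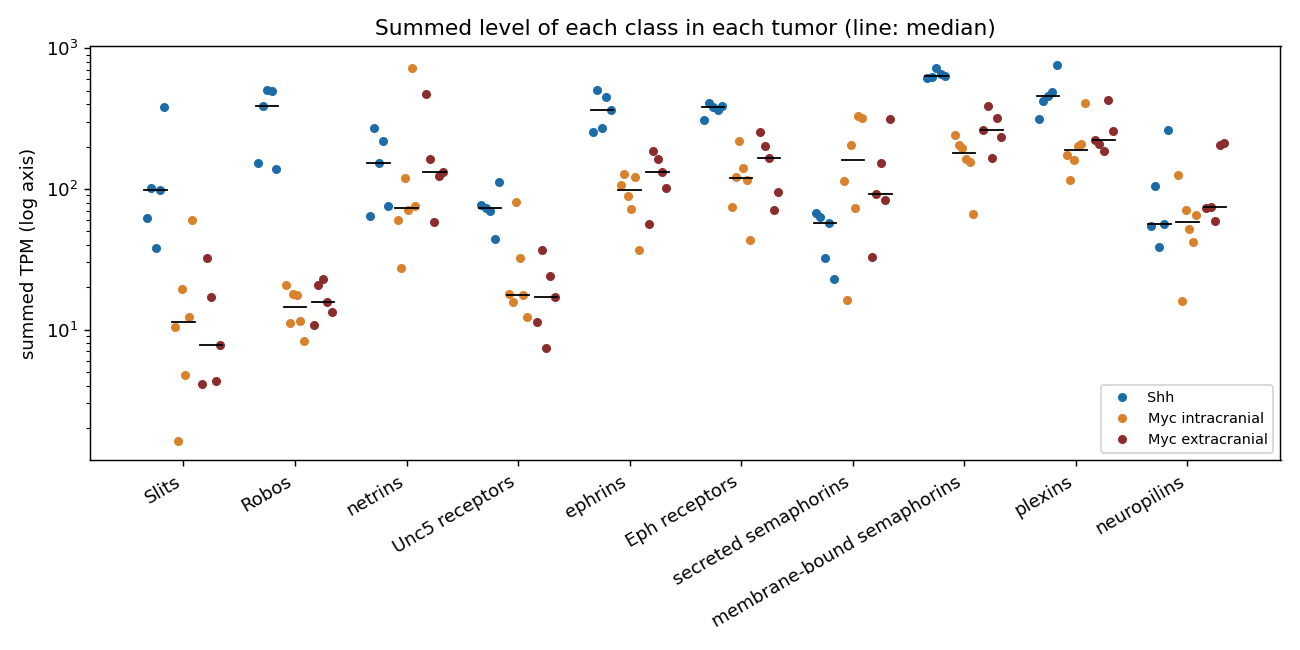
Summed TPM (log axis) of the members of each class in each tumor (points) by group, with the median as a line. The Robos, ephrins, Eph receptors and membrane-bound semaphorins of Shh tumors all lie above those of every Myc tumor, while Slits, Unc5 receptors, plexins, netrins, neuropilins and secreted semaphorins overlap.

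In edgeR with all tumors, of the 7 secreted Sema3 genes none was higher and 2 were lower in Shh tumors. Their median log2 fold change was -1.84, with all 7 values negative. Of the 13 membrane-bound genes 7 were higher and none lower (median 1.88). DESeq2 also called Sema3a, named after its values were seen, and Sema3b, the latter as higher in Shh tumors. Sema4d was called as lower among tumors induced at E6 alone, and was also called against the extracranial Myc tumors alone. The difference between the classes was not tested. Summed levels of the membrane-bound class were 616 to 726 TPM in Shh tumors, a narrow range, and 65.9 to 391 TPM in Myc tumors. On log2(TPM + 1) in limma neither Sema3 call held, and 3 of the 7 Sema3 differences were above 0 (Sema3b 1.004, Sema3e 0.69 and Sema3g 0.14; median of the 7, -0.47).

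Sema5b, a transmembrane semaphorin with thrombospondin repeats, was the most abundant of the 13 in Shh tumors. It stood at 64.0, 140.5, 280.5, 302 and 285 TPM there and at 0.0799 to 1.38 TPM in 10 of the 11 Myc tumors, with 43992A at 22.0 TPM (5.90 ± 1.24, adjusted p = 0.00182). No Myc tumor reached the lowest Shh tumor. Sema4g followed at 78.3, 95.7, 44.0, 49.8 and 93.7 TPM against 0.585 to 14.7 TPM (median 1.81; 3.62 ± 0.61, adjusted p = 0.000344), also without overlap. Sema6a and Sema6d, ligands and receptors for A-class plexins in cerebellum and spinal cord, were at 42.2 to 127 and 20.4 to 57.5 TPM in Shh tumors and at 2.53 to 39.8 and 3.02 to 10.5 TPM in Myc tumors. Both separated the groups, Sema6a by a margin set by 43990A (2.35 ± 0.46, adjusted p = 0.00107) and Sema6d by a wider one (2.15 ± 0.28, adjusted p = 4.78e-05).

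Sema4f, Sema6c and Sema5a also passed, with overlapping ranges. Sema4f was at 24.4, 21.6, 6.18, 3.53 and 9.10 TPM against 0.282 to 3.86 TPM (2.81 ± 0.60, adjusted p = 0.00206) and Sema6c at 20.1, 17.1, 7.50, 8.05 and 24.6 TPM against 0.391 to 8.74 TPM (1.88 ± 0.49, adjusted p = 0.00751), each with 1 Shh tumor or more inside the Myc range. Sema5a passed (2.22 ± 0.76, adjusted p = 0.0346) on levels of 30.5, 18.8, 2.76, 4.92 and 2.12 TPM against 0.370 to 11.2 TPM. The call was lost when any of 9 single tumors was left out, and without 29048, its highest tumor, the log2 fold change was 1.49 ± 0.80 with an adjusted p of 0.168. Sema4c, outside the rule for naming and chosen after its values were seen, had an adjusted p of 0.0171 at a log2 fold change of 0.88, under the threshold of 1, and was called higher in limma on both scales, against the intracranial Myc tumors alone and without 29048. Sema4b, the Sema4 gene of highest median in Myc tumors (40.5 TPM, range 8.30 to 101), was at 26.4 to 90.0 TPM in Shh tumors (-0.20 ± 0.49, adjusted p = 0.774).

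The secreted members that passed were Sema3c, which guides neural crest cells and callosal axons, and Sema3f, a repellent that acts through Nrp2. Sema3c stood at 15.0, 16.9, 6.80, 8.63 and 7.06 TPM in Shh tumors and from 1.85 to 231 TPM (median 44.8) in Myc tumors, with R26P123 highest (-2.80 ± 0.82, adjusted p = 0.0154). The ranges overlapped. Sema3f, at 13.9, 6.61, 4.64, 8.52 and 1.17 TPM against 6.75 to 51.1 TPM (median 9.04), also overlapped (-1.79 ± 0.64, adjusted p = 0.0411) and lost its call when any of 6 single tumors was left out. Sema3e, the Plxnd1 ligand and the Sema3 gene of highest median in Shh tumors (12.7 TPM), ranged from 0.466 to 234 TPM in Myc tumors (-1.84 ± 1.40, adjusted p = 0.319). Sema3b, 72.3 kb from Sema3f on chromosome 9, was at 2.80 to 8.74 TPM in Shh tumors and at 0.344 to 4.67 TPM in all Myc tumors but R26P115, which held 221 TPM. Its direction was not settled. In edgeR the log2 fold change was -2.60 ± 1.75 (adjusted p = 0.257) with R26P115 and 1.68 ± 0.56 (adjusted p = 0.0257), past the threshold, without it. With all 16 tumors DESeq2 called it higher in Shh tumors (1.62, adjusted p = 0.00856), and limma on log2(TPM + 1) gave 1.004 (adjusted p = 0.439). DESeq2 was run with its default replacement of outlying counts in larger groups, so the count of R26P115 may not have entered its value.

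Semaphorin receptors moved mostly upward. Of 9 plexins 6 were higher and 1 lower, and of the 2 neuropilins 1 was lower in Shh tumors. All 4 A-class plexins, which pair with neuropilins or bind Sema6 ligands, rose: Plxna2 was at 16.2, 24.4, 27.8, 13.0 and 61.4 TPM against 1.16 to 11.3 TPM (2.26 ± 0.45, adjusted p = 0.00114), Plxna3 at 26.8 to 68.7 against 1.91 to 14.3 TPM (1.80 ± 0.32, adjusted p = 0.000478), and Plxna4 at 7.04 to 15.3 against 0.615 to 5.92 TPM (1.92 ± 0.41, adjusted p = 0.00188). These 3 did not overlap. Plxna1, at 42.7, 93.1, 69.2, 70.6 and 272 TPM against 16.8 to 55.0 TPM (1.42 ± 0.35, adjusted p = 0.00591), did, and without R26P87, its highest tumor, it missed the threshold at 0.76 and an adjusted p of 0.0562.

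Plxnc1, the receptor of Sema7a, showed the lowest adjusted p of the plexins. Its Shh levels were 28.2, 36.3, 24.7, 43.5 and 11.5 TPM and its Myc levels 0.454 to 4.91 TPM (median 2.39), with no overlap (2.97 ± 0.37, adjusted p = 3.63e-05). Sema7a itself, an anchored semaphorin, did not pass: it was at 103, 10.5, 15.6, 5.98 and 22.9 TPM in Shh tumors and at 7.80 to 244 TPM (median 25.2) in Myc tumors, where it was the most abundant of the Sema5 to Sema7 genes (-1.05 ± 0.83, adjusted p = 0.339). Ligand and receptor thus had their higher medians in different subgroups, although only the receptor's difference passed. Plxnc1 (ENSMUSG00000074785, chromosome 10, 94790866 to 94944835, minus strand, GRCm38) is shown for that reason with the 250 bases before its RefSeq start, chr10:94944846-94945095 (minus strand, RefSeq, GRCm38.p6), of which 68.8% are G or C and which hold none of the 4 motifs.
Plxnc1: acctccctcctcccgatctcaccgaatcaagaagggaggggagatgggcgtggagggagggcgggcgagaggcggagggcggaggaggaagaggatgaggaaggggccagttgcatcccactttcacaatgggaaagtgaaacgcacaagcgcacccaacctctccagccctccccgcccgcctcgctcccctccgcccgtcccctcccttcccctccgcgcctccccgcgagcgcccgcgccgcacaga
Across the 75 member windows the median was 64.4% G or C, against 52.4% in all 32841 windows, and it was 63.2% for members higher in Shh tumors and 64.6% for members that did not pass.

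Plxnb1, a receptor of Sema4d, was at 73.3, 74.8, 122, 120.4 and 116 TPM in Shh tumors. In Myc tumors it lay between 1.04 and 8.03 TPM in 10 of 11 and at 64.2 TPM in R26P115 (2.75 ± 0.82, adjusted p = 0.0163); without R26P115 the log2 fold change was 4.10 ± 0.45 with an adjusted p of 1.12e-05, whereas against the intracranial Myc tumors alone it did not pass (2.13, adjusted p = 0.103). Plxnb2, the most abundant plexin in both subgroups, held 78.2 to 205 TPM in Shh and 71.5 to 285 TPM in Myc tumors and did not pass (-0.33 ± 0.32, adjusted p = 0.447). Plxnd1, the vascular plexin and Sema3e receptor, was the plexin lower in Shh tumors, at 12.0, 11.9, 14.1, 25.6 and 18.2 TPM against 16.3 to 219.7 TPM (median 42.8; -2.31 ± 0.59, adjusted p = 0.00689). R26P98 and R26P87 lay within the Myc range. Nrp1, a co-receptor for both Sema3 ligands and vascular growth factors, passed narrowly as lower in Shh tumors, at 24.5, 26.5, 14.2, 12.4 and 15.0 TPM against 6.07 to 55.2 TPM (-1.21 ± 0.44, adjusted p = 0.0455), and lost the call when any of 12 single tumors was left out and on log2(TPM + 1) (-0.47, adjusted p = 0.426). Nrp2, the more abundant neuropilin, was at 29.9, 77.9, 24.5, 44.3 and 247 TPM and at 6.98 to 198 TPM (adjusted p = 0.958).

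Members were also tested one at a time. The exact permutation test on log2(TPM + 1), two-sided over the 4368 splits of 5 against 11 tumors and not adjusted, gave its smallest possible p of 0.000458 for 21 of the 35 members that passed. That p arises only where the levels of the subgroups do not overlap. These are therefore the 20 and 1 members counted above as not overlapping, where 15.3% of all genes did not overlap. The test adds nothing to that count. Mice were named in 2 schemes (plain numbers and R26P numbers), each with Shh and Myc tumors. For a difference of the subgroup effect between the schemes, 3 of 68 members had an unadjusted p under 0.05 in edgeR, against 10.5% of the 21854 genes, and 0 members and 0 of all genes had an adjusted p under 0.05.

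Other genes of the same pathways also differed between the subgroups. From a list of 68 coreceptors, adaptors and downstream enzymes, 32 passed (47.1%, against 26% of all genes), 25 higher and 7 lower in Shh tumors; without 29048 the counts were 25 and 6. Dcc, the attractive netrin receptor, had the largest rise, at 11.6, 28.2, 6.07, 5.53 and 23.3 TPM against 0.0265 to 0.247 TPM (7.23 ± 0.54, adjusted p = 5.30e-07). Draxin, a secreted repellent that binds Dcc, was at 19.4 to 40.2 TPM in 4 Shh tumors and 585 TPM in R26P87, against 0.141 to 5.03 TPM (6.31 ± 1.07, adjusted p = 0.000344). Dpysl5, a collapsin response mediator of growth cones, Cntn2, an axonal adhesion molecule, and Lrrc4c, the partner of netrin-G1, rose by 6.70, 5.25 and 4.999 on the log2 scale, each without overlap. In Shh tumors Cntn2 was at 55.1, 11.6, 5.27, 0.988 and 2.05 TPM and Lrrc4c at 45.4, 24.8, 7.07, 3.28 and 4.73 TPM, both highest in 29048. None of these calls was lost when any single tumor was left out. Among tumors induced at E6 alone 18 of the 68 passed, and Draxin (adjusted p = 0.163), Cntn2 (0.120), Mical2 (0.0803) and Met (0.164) did not. Of those that passed, the lowest were Mical2, an actin-oxidizing enzyme (-3.62 ± 1.02, adjusted p = 0.0124), Cd72, a Sema4d receptor of B cells (-3.51 ± 0.82, adjusted p = 0.00373), Met, the scatter factor receptor that pairs with B-class plexins (-3.13 ± 1.02, adjusted p = 0.0268; lost when any of 4 Shh tumors was left out), Fes, a kinase downstream of plexin A1 (-2.90 ± 0.37, adjusted p = 3.94e-05), and Itgb1, the integrin chain bound by Sema7a (-2.37 ± 0.36, adjusted p = 0.000141).

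Markers of other cells moved along with these genes. Summed over 10 neuronal markers, Shh tumors held 284 to 4520 TPM and Myc tumors 22.7 to 482 TPM, and 7 of the 10 were higher in Shh tumors, with and without 29048. The sum was 4520 TPM in 29048 and 3537 TPM in 38594A, and at most 819 TPM in the other Shh tumors. R26P98, the lowest of them, lay below the Myc tumors 43989C, 29941C and 43998A. The 6 fibroblast markers were all lower (105 to 526 against 545 to 7795 TPM), as were 10 of 13 immune markers (334 to 498 against 551 to 4620 TPM), while 2 of 10 endothelial markers were lower (153 to 342 against 104 to 494 TPM). Of 7 skeletal muscle markers 4 were lower (2.36 to 7.27 against 3.59 to 682 TPM), and of 6 astrocyte markers 2 were higher (174 to 2057 against 12.5 to 589 TPM), 1 of them without 29048. Of 6 pericyte and of 5 epithelial markers 1 each was higher and 1 lower, and of 6 Schwann cell markers 1 was higher. Without 29048, 0 Schwann cell markers were higher and 1 was lower, and 5 fibroblast, 8 immune, 3 muscle and 1 endothelial markers were lower. Of 8 oligodendrocyte markers 6 were higher with 29048 and 0 without it. No marker of these lists was at 0 in every tumor of a subgroup. The part of these cells in the differences of the guidance genes was not tested.

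Between intracranial and extracranial Myc tumors no guidance gene passed in edgeR, in either direction. In edgeR 0 of 68 members passed, against 0.0047% of the 21261 genes tested (1 gene), and 11 members had an unadjusted p under 0.05, against 12.3% of all genes. DESeq2's Wald test, which called 2.3% of all genes, called 1 member, Sema3e (log2 fold change 4.73, adjusted p = 0.00362). The TPM ranges of the 6 intracranial and 5 extracranial tumors overlapped for all 68 members, where 0.847% of all genes did not overlap. With 43990A counted as intracranial, a placement compared in this way after the data were seen, 1 member did not overlap (Plxnd1, 16.3 to 44.2 against 51.7 to 219.7 TPM), against 0.984% of all genes, and edgeR again called 0 members. The median log2 fold change over the members, intracranial over extracranial, was -0.08, with a range of -2.91 to 6.10.

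**Figure D5:**
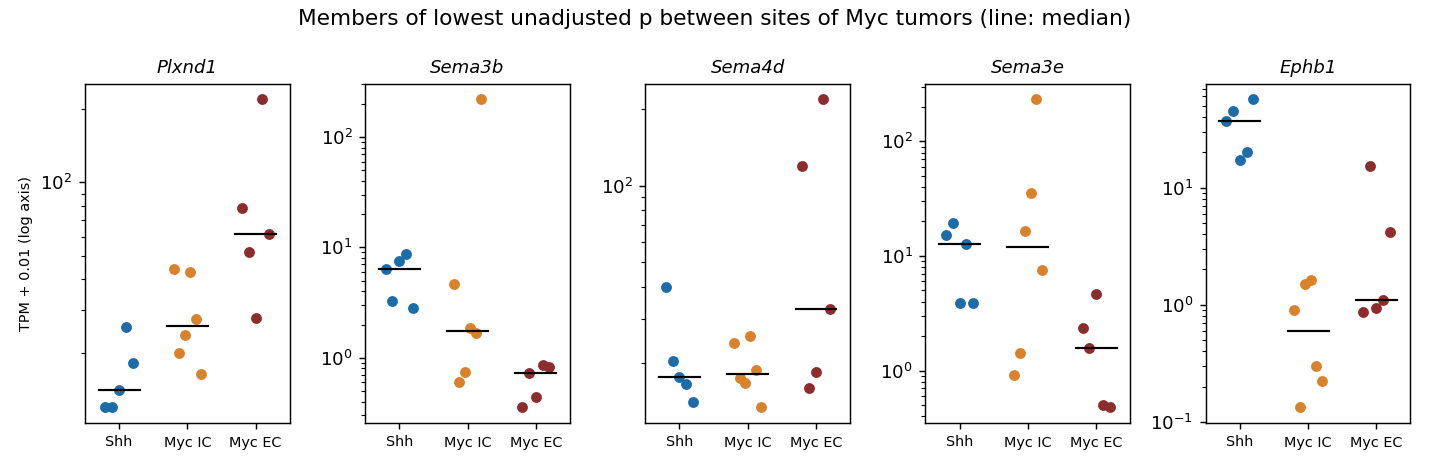
TPM in each tumor (points; log axis, 0.01 added) of the 5 members of lowest unadjusted p between the sites of Myc tumors, with the median as a line: 5 Shh tumors, 6 intracranial Myc tumors (Myc IC) and 5 extracranial Myc tumors (Myc EC). A single tumor stands far above the rest for Sema3b (R26P115, 221 TPM) and Sema3e (R26P170, 234 TPM), and the sites overlap for each gene.

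The 5 members of lowest p were Plxnd1, Sema3b, Sema4d, Sema3e and Ephb1. Plxnd1 ranged from 16.3 to 44.2 TPM (median 25.7) in the intracranial tumors and stood at 78.2, 51.7, 27.9, 219.7 and 61.4 TPM in the extracranial ones, where only 43990A fell within the intracranial range (-1.61 ± 0.49, unadjusted p = 0.00672 and adjusted p = 0.346 in edgeR). Without 43998A it was -0.90 ± 0.35. Its ligand Sema3e went the other way, with 0.901 to 234 TPM (median 11.9) in intracranial tumors and 2.34, 1.56, 4.66, 0.485 and 0.466 TPM in extracranial ones (4.70 ± 1.45, unadjusted p = 0.00739); without R26P170 it was 2.68 ± 1.01. Sema3b was led by R26P115 (0.590 to 221 TPM, median 1.75, against 0.344, 0.725, 0.428, 0.851 and 0.817 TPM; 6.10 ± 1.87, unadjusted p = 0.00703), and without that tumor by 1.57 ± 0.64. Sema4d, a semaphorin of lymphocytes and osteoclasts, was at 13.4 to 25.6 TPM (median 18.2) against 119, 16.1, 18.5, 219 and 32.7 TPM (-2.08 ± 0.64, unadjusted p = 0.00704), high in 43825B and 43998A. Without 43998A it was -1.26 ± 0.52 (unadjusted p = 0.0344). The immune marker sums of these tumors were 4124 and 4620 TPM, but in 43998A single markers diverged, with Tyrobp at 2032 and Cd68 at 1563 TPM and Adgre1 at 10.4 and Aif1 at 22.7 TPM, the latter pair the lowest of the 11 Myc tumors. The part of immune cells in the Sema4d levels was not tested. Ephb1 was at 0.122 to 1.63 TPM against 0.854, 15.2, 0.922, 1.09 and 4.19 TPM (-2.56 ± 0.95, unadjusted p = 0.0199), with 43987A highest. The adjusted p was 0.346 for each of the first 4 and 0.360 for Ephb1.

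For the other 6 members with an unadjusted p under 0.05 (chosen here for that value), Epha3, Plxna1, Sema4a and Sema7a were higher in extracranial tumors by 0.60 to 2.57 on the log2 scale, and Sema5b and Unc5a higher in intracranial ones by 3.94 and 2.11, the former through 43992A at 22.0 TPM. For Robo3 the site difference was 0.39 ± 0.99 (unadjusted p = 0.701), for Slit1 0.86 ± 0.72 (0.256) and for Unc5c 0.93 ± 0.51 (0.0966), and the highest Myc values of the last 2, 2.88 and 1.52 TPM, were both in the intracranial tumor 29225D.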

How the data were processed

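RNA of 16 tumors from 16 mice was sequenced on polyA-selected, stranded libraries. The authors trimmed reads with Trim Galore, aligned them to mm10 with STAR 2.5.3a and deposited a table of raw counts per gene and a table of TPM; the gene annotation and the strand setting of counting are not given in the sources used here. Exons of 18 members overlap those of another gene, 15 on the opposite strand, so reads there may be shared. Total counts were 17889968 to 110177889 per tumor.

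The counts were tested in edgeR 4.0.16 (R 4.3.3; TMM scaling, quasi-likelihood test) over all genes with a count above 0, with Benjamini-Hochberg adjustment over all of them and a threshold of adjusted p under 0.05 and absolute log2 fold change above 1. Shh (5) was compared with Myc (11), and within Myc intracranial (6) with extracranial (5). TPM served for levels, for ranges and for limma 3.58.1 on log2(TPM + 1) and log2(TPM + 0.1). Other alternatives were DESeq2 1.42.0, its size factors, edgeR's low-count filter, a covariate for the mouse name scheme, dropping the fold threshold, each tumor left out, subsets of tumors by site or induction day, and 43990A as intracranial. On simulated counts with 200 genes changed 4-fold, 49.5% were recovered for Shh against Myc and 34.0% for the sites.

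The members and gene lists were chosen with earlier results of these data known. Named were every member past the threshold, the 5 of lowest p between sites, the member of highest median in each family and subgroup, and, of the further guidance genes past the threshold, the 5 highest and 5 lowest. Promoter sequences came from RefSeq (GRCm38.p6), with 75 windows for 59 of 68 members.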

Additional observations from a re-analysis of the deposited data

Results flagged for a closer look

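Within each group of 5 or 6 tumors, the level of every named gene was searched for a tumor set apart from the rest, by the gap between the highest or lowest tumor and its nearest neighbor as a share of the group's whole range on log2(TPM + 1) beyond Dixon's 95% critical value. Of 180 groups tested 22 held such a tumor. The genes had been named from these same data and the groups share tumors, so no chance rate can be set beside this count. The share over all genes is not given. Some of these levels are near 0, as for Epha10 in the extracranial tumors, with 11 counts in 43990A and 0 or 1 in the others.

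Among the Shh tumors, R26P87 stood apart for Draxin (highest, 585 TPM against 19.4 to 40.2, gap 0.790), Epha2 (highest, 4.47 TPM against 1.73 to 2.11, gap 0.810) and Met (highest, 16.1 TPM against 0.516 to 1.96, gap 0.724). R26P98 stood apart for Itgb1 (highest, 261 TPM against 106 to 132, gap 0.763).

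Among the intracranial Myc tumors, 43989C stood apart for Dcc (highest, 0.247 TPM against 0.0265 to 0.0848, gap 0.715). 43992A stood apart for Plxnc1 (lowest, 0.454 TPM against 1.99 to 3.41, gap 0.651) and Sema5b (highest, 22.0 TPM against 0.0799 to 1.38, gap 0.742). R26P115 stood apart for Mical2 (lowest, 5.41 TPM against 83.0 to 272, gap 0.686), Plxnb2 (highest, 285 TPM against 71.5 to 119, gap 0.631) and Sema3b (highest, 221 TPM against 0.590 to 4.67, gap 0.743).

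Among the extracranial Myc tumors, 43825B stood apart for Efna5 (lowest, 1.08 TPM against 34.9 to 71.4, gap 0.802) and Robo1 (lowest, 0.720 TPM against 7.55 to 13.1, gap 0.762). 43987A stood apart for Sema3f (highest, 19.4 TPM against 6.75 to 9.23, gap 0.713) and Slit2 (highest, 25.2 TPM against 0.786 to 2.30, gap 0.771). 43990A stood apart for Dpysl5 (highest, 2.26 TPM against 0.0470 to 0.220, gap 0.865), Efnb3 (highest, 32.0 TPM against 1.04 to 2.005, gap 0.861), Epha10 (highest, 0.136 TPM against 0 to 0.0178, gap 0.862), Robo2 (highest, 1.26 TPM against 0.188 to 0.411, gap 0.731) and Sema5a (highest, 11.2 TPM against 0.486 to 1.14, gap 0.826). 43998A stood apart for Plxna3 (lowest, 6.48 TPM against 9.95 to 11.1, gap 0.799) and Sema6d (lowest, 3.02 TPM against 6.72 to 8.44, gap 0.765). R26P123 stood apart for Cntn2 (highest, 0.328 TPM against 0.0153 to 0.0469, gap 0.886).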

How the results depend on the processing

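Between Shh and Myc tumors the number of members past the threshold ranged from 31 to 36 when single tumors were left out. In each of these fits 29 members passed, and the share of all genes that did so is not given. The number of members was 31 without 38594A (against 21.9% of all genes) or R26P87 (22.9%) and 36 without R26P115 (30.5%). It was 41 with DESeq2 (29.1%), 38 and 37 with limma on log2(TPM + 1) (24.8%) and log2(TPM + 0.1) (30.1%), 34 with DESeq2 size factors (26%), 36 with the low-count filter (31.2%) or with no fold threshold (33.1%), 32 with the scheme of mouse names as covariate (25.6%), 35 against the intracranial (23%) and 33 against the extracranial Myc tumors alone (26.2%). Among tumors induced at E6 it was 23 (20 of them among the 35), with 3533 of all genes (16.9%) and 18 further guidance genes, in a fit with fewer tumors. Between the sites DESeq2 called 1 member, 2 further guidance genes and 490 of all genes, limma on log2(TPM + 0.1) called 2 of all genes, and leaving out single tumors gave 0 to 3. With 43990A as intracranial, 0 members and 1 of all genes were called and the TPM ranges of 1 member did not overlap; the cause was not tested.

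Of the genes named by rule, those whose log2 fold change turned sign had not passed in edgeR with all tumors; on log2(TPM + 1), 14 of the 68 members turned, none of which had passed in edgeR. Of the named genes, on log2(TPM + 1) and log2(TPM + 0.1) they were Nrp2 (0.59 and 0.61), Ntn1 (0.23 and 0.24), Plxnb2 (0.25 and 0.25), Sema3b (1.004 and 1.64), Sema3e (0.69 and 1.06), Sema4b (0.45 and 0.46), Slit3 (0.097 and 0.20) and Unc5b (0.078 and 0.098). DESeq2 by default replaces outlying counts in larger groups such as the Myc tumors. With DESeq2 the genes that turned were Sema3b (1.62, which passed as higher in Shh tumors) and Sema3e (0.21). With the scheme of mouse names as covariate it was Sema3b (0.55). At E6 alone the genes that turned were Efna4 (-0.068), Nrp2 (1.65), Sema3b (1.96), Sema4b (0.75), Sema7a (0.10) and Unc5b (0.42). Ntn1 and Sema4d, not called over all tumors, passed at E6 alone as lower in Shh tumors. Against intracranial Myc tumors they were Nrp2 (0.80), Sema7a (0.042) and Slit3 (0.028), and against extracranial ones Sema3b (2.67, which passed), Sema3e (2.06) and Sema4b (0.036). Leaving out single tumors gave -0.99 to 0.33 for Nrp2, -2.81 to 1.68 for Sema3b and -2.14 to 0.15 for Sema3e.

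No paired analysis was possible because no mouse is in more than 1 group and replicate numbers only follow sample order. Subgroup, site in the brain and induction day cannot be told apart, and p-values cover the spread between these mice. The sites were compared with 6 and 5 tumors, where an exact permutation test cannot give less than 0.00433.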
